A study of Oryza sativa with 4 samples.

Results

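AK102472 and AK058296 are rice cDNAs described on the array as 1-aminocyclopropane-1-carboxylate (ACC) oxidases, the enzymes of the final step of ethylene synthesis. They are 2 of 21495 probes that are not controls, and 2 of the 6 ACC oxidase cDNAs reported here. Both were singled out with their ratios of transgenic over wild type already known, so their fall in transgenic panicles is given as a description with no test. Each is measured by 1 probe. The nearest described sequence is a putative ACC oxidase of Arabidopsis for AK102472 and an ACC oxidase mRNA of rice itself for AK058296.

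The arrays compared branching panicles of transgenic rice that carried a construct against RFL with those of wild type rice TP309, a cultivated variety. RFL encodes the LEAFY homologue of rice, and LEAFY specifies floral meristems in Arabidopsis. The construct was an RFL antisense transgene on 2 arrays and a dsRNAi (double-stranded RNA interference) transgene called dsRNAiRFL on the other 2. Each array was hybridized with both RNAs, and the dyes were exchanged between the arrays of a construct (transgenic RNA in Cy5 on replicate 1 and in Cy3 on replicate 2). The wild type RNA is the control. RNA was pooled, and the promoter of the constructs, the number of lines, the variety that was transformed and the age of the plants are not given in the sources used here. No probe is described as RFL, so its own level was not checked. Independent pools are mentioned in the design, but which array holds which pool is not settled by the labels, so p-values measure only the spread between arrays, which may be technical. Their number limits the precision.

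Ethylene is a gaseous plant hormone made from methionine. S-adenosylmethionine (SAM) synthetase activates methionine, ACC synthase turns SAM into ACC and a methylthio by-product, and ACC oxidase, an iron enzyme that needs ascorbate and oxygen, releases ethylene from ACC. The by-product returns to methionine through a salvage cycle. Receptors in the endoplasmic reticulum hold the pathway off until ethylene binds, after which EIN2 and the EIN3-like (EIL) transcription factors switch on response genes. In rice the hormone is best known for stem elongation under flooding.

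Transgenic RNA gave 16106 to 18191 probes well above background on an array, wild type RNA 14722 to 17270. These counts followed the dye: within each construct, either RNA gave more on the array where it was in Cy5. Of the probes that passed a filter on dim spots, 17997 had a value on every array and were tested. Of 27 MADS-box cDNAs, a family that includes the floral organ identity genes, 25 passed that filter, as did 18096 of all 21495 probes. So many probes passed that this count does not identify the tissue. Log2 ratios are transgenic over wild type. Levels are log2 intensities of 1 channel after normalization, comparable between arrays for 1 probe but not between probes.

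AK102472 was lower in transgenic than in wild type panicles on every array. Its log2 ratio was -5.76 and -5.75 on the antisense arrays and -4.79 and -4.44 on the dsRNAi arrays. The 2 antisense arrays, with dyes exchanged, gave nearly the same value, and both lay below the dsRNAi arrays. In the wild type channel its level was 13.73 and 13.90 on the antisense arrays and 12.77 and 12.87 on the dsRNAi arrays. In the transgenic channel it was 7.97 and 8.14 on the antisense arrays, against 7.97 and 8.43 on the dsRNAi arrays. The channels did not overlap, and the lowest wild type level exceeded the highest transgenic level by 4.33. The mean of both constructs was -5.18 ± 0.09 (limma's moderated SE, n = 4 arrays), which is 36.3-fold lower. Here and below, the SE of a mean rests on the spread between arrays of the same construct and leaves out the gap between constructs. The SD of the AK102472 ratio over the 4 arrays was 0.67. The fold was 54.0 with antisense and 24.5 with dsRNAi.

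**Figure D1:**
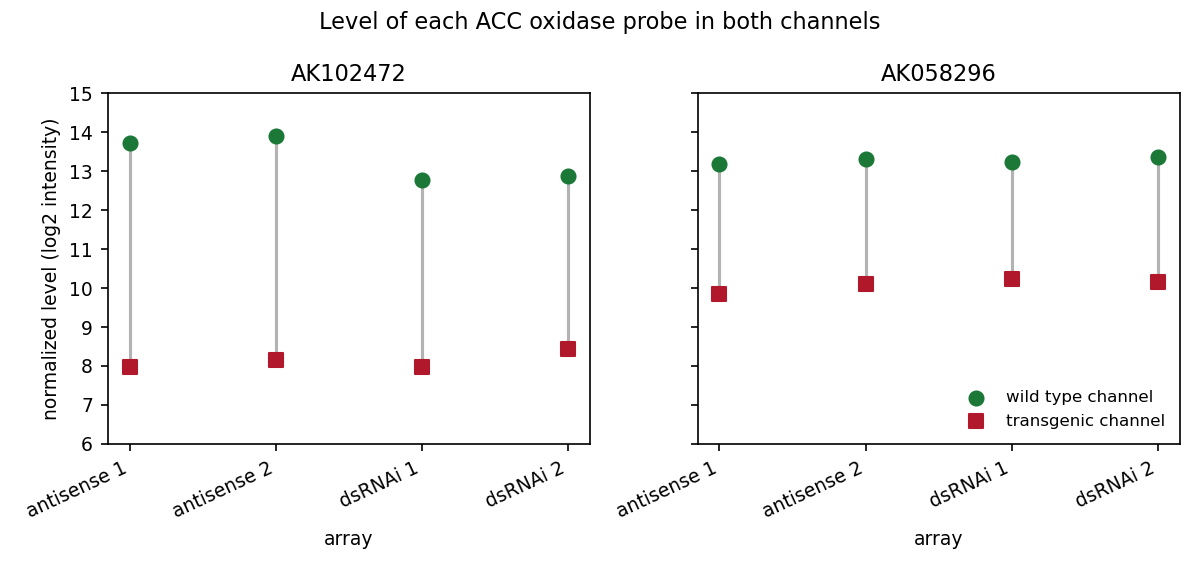
Normalized level (log2 intensity, vertical axis) of AK102472 and AK058296 in the wild type channel (green circles) and the transgenic channel (red squares) of each of the 4 arrays (horizontal axis), with a grey line joining the channels of an array. The wild type level of AK102472 is 13.73 and 13.90 on the antisense arrays against 12.77 and 12.87 on the dsRNAi arrays, while its transgenic level stays between 7.97 and 8.43.

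The wild type spots of AK102472 had mean intensities of 7754, 23926, 3112 and 7645 (antisense replicates 1 and 2, then dsRNAi replicates 1 and 2), over a local background between 51 and 77. Its transgenic spots had 476, 191, 746 and 293 over a background between 51 and 77. All 8 channel values were flagged as well above background and 0 as saturated. The wild type spots were brighter on the replicate with wild type RNA in Cy5, in both constructs, and only normalized values are compared between arrays.

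AK058296 was also lower in transgenic panicles on every array, by less than AK102472. Its log2 ratio was -3.34 and -3.22 on the antisense arrays, against -2.99 and -3.20 on the dsRNAi arrays. The constructs gave close values, with the 2 antisense ratios just below the 2 dsRNAi ratios. Its wild type level was 13.18 and 13.32 on the antisense arrays and 13.23 and 13.37 on the dsRNAi arrays. Its transgenic level was 9.84 and 10.10 on the antisense arrays, against 10.23 and 10.16 on the dsRNAi arrays. The lowest wild type level exceeded the highest transgenic level by 2.95. The mean of both constructs was -3.19 ± 0.08 (SE, n = 4 arrays), or 9.11-fold lower, with 9.69-fold for antisense and 8.56-fold for dsRNAi. Its wild type spots read 5382, 16471, 4218 and 11091 and its transgenic spots 1673, 672, 3438 and 923, in the same order of arrays. All were well above background and 0 were saturated.

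Over all tested probes the median log2 ratio in the mean of both constructs was -0.0016, and the central 50% lay between -0.22 and 0.21. AK102472 held place 3 and AK058296 place 43 of 17997 when probes were ordered from the lowest mean ratio upward. By construct, AK102472 stood at place 5 in each, and AK058296 at 74 with antisense and 32 with dsRNAi. Since panicles were measured in bulk, fewer cells that express a gene and less RNA per cell cannot be told apart.

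The difference between the constructs did not enter the mean ratio, and it was tested. The ratios it compares were known when the 2 probes were chosen, so its p-values and intervals may carry that selection. For AK102472, dsRNAi minus antisense was 1.14 ± 0.18 (SE), with a 95% interval from 0.72 to 1.56 (limma adjusted p = 0.00488). Over all probes 16.4% passed in this comparison, so such a call was common. For AK058296 the difference was 0.18 ± 0.17 (adjusted p = 0.544), with an interval from -0.21 to 0.56. The AK102472 call was lost with median centring in place of loess (1.43, adjusted p = 1), a scaling that left 32 calls among all probes.

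The channels were then compared separately between the arrays of the constructs. The wild type level of AK102472 was lower on the dsRNAi arrays than on the antisense arrays by 0.995 ± 0.162 (12.82 against 13.81, limma separate channel adjusted p = 0.00119). Its transgenic level was 8.20 with dsRNAi and 8.06 with antisense, a difference of 0.15 ± 0.16 (adjusted p = 0.717). The construct difference in its ratio was accompanied by a call in the wild type channels and by none in the transgenic channels. Calls were made for 32.4% of probes between the wild type channels and for 2.52% between the transgenic channels. For AK058296 the wild type channels differed by 0.05 ± 0.14 (adjusted p = 0.826) and the transgenic channels by 0.23 ± 0.14 (adjusted p = 0.45). The arrays of the constructs were also read with different versions of the image software, so wild type pool, construct and version cannot be told apart here.

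Neither probe passed for an effect of dye. With a term for dye orientation in the fit, AK102472 had a dye effect of -0.09 (adjusted p = 0.665) and AK058296 one of 0.02 (adjusted p = 0.925). Limma called 0 probes (0%) for dye orientation, and 1856 had an unadjusted p under 0.05.

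Of the other 4 ACC oxidase cDNAs reported, 2 passed the filter on dim spots and were tested, and both had smaller ratios than AK102472 and AK058296. In the mean of both constructs 0 rose and 1 fell (50%, against 41.7% called over all probes and 21.3% called lower), with log2 ratios of -0.45 and -0.32. AK061064 and AK105491, described as ACC oxidase 1 of sorghum, were not well above background in either channel of any array and have no usable ratio.

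AK059964 carries the same rice description as AK058296 but is a separate cDNA with its own probe. Its log2 ratio was -0.47 and -0.43 with antisense and -0.48 and -0.43 with dsRNAi, so all 4 arrays lay within 0.051 of each other. It fell by 0.45 ± 0.08 in the mean (adjusted p = 0.00233). Its call was lost with the deposited series table (adjusted p = 0.0501) and with median centring (0.774). AK065039, described as a partial rice ACO1, stood at -0.32 ± 0.11 (adjusted p = 0.0531), with -0.22, -0.32, -0.06 and -0.66 on the arrays. It was dim, with wild type RNA well above background on 3 arrays and transgenic RNA on 2. AK065039 passed with normexp offset 10 (-0.55, adjusted p = 0.0257), plain background subtraction (0.0321), a dye term (0.0361) and an intensity trend (0.0348). Without dsRNAi replicate 1 it stood at -0.47. Between the arrays of the constructs, the wild type channels of AK059964 and AK065039 differed by -0.35 (adjusted p = 0.056) and 0.10 (adjusted p = 0.73), and their transgenic channels by -0.35 (adjusted p = 0.172) and 0.02 (adjusted p = 0.984).

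**Figure D2:**
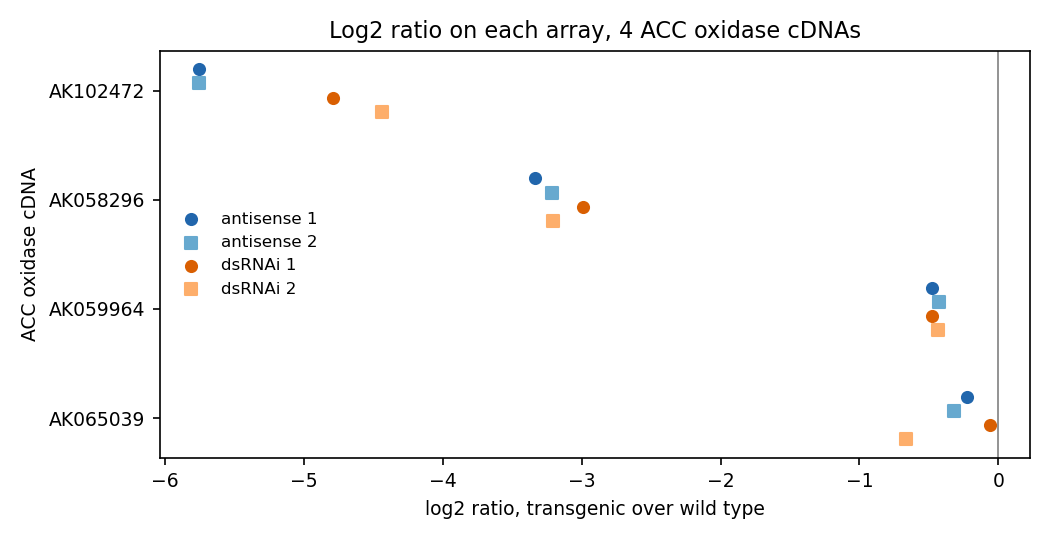
Log2 ratio of transgenic over wild type (horizontal axis) on each of the 4 arrays for 4 tested ACC oxidase cDNAs (vertical axis, ordered by their mean), with antisense arrays in blue and dsRNAi arrays in orange, replicate 1 as circles and replicate 2 as squares. AK102472 lies between -5.76 and -4.44 and AK058296 between -3.34 and -2.99, while AK059964 and AK065039 lie between -0.66 and -0.06.

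**Figure D3:**
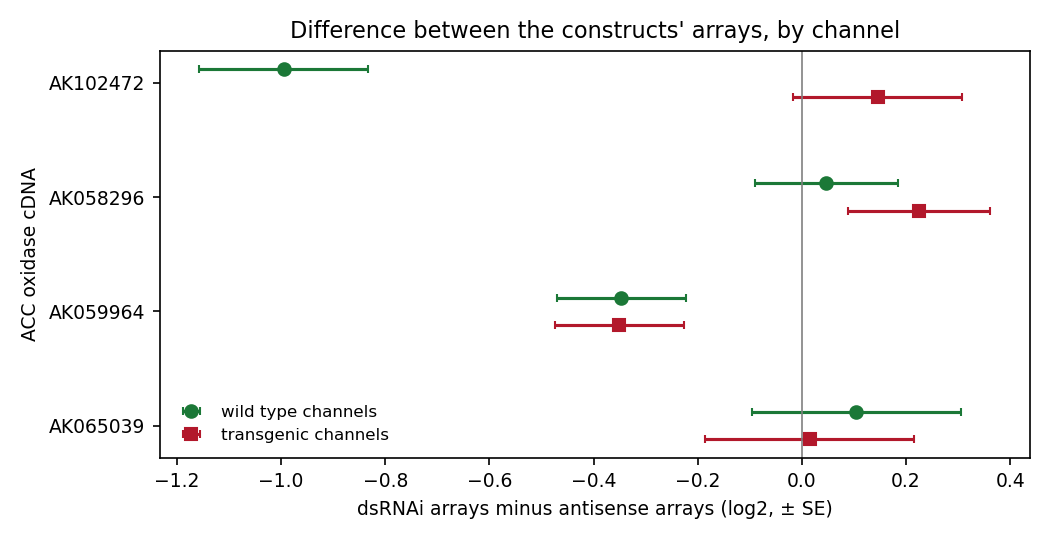
Difference of dsRNAi arrays minus antisense arrays in log2 level (horizontal axis, bars are limma's SE) in the wild type channels (green circles) and the transgenic channels (red squares), for 4 tested ACC oxidase cDNAs (vertical axis). The wild type channels lie at -0.995 for AK102472, 0.05 for AK058296, -0.35 for AK059964 and 0.10 for AK065039.

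Upstream of ACC oxidase, 3 ACC synthase cDNAs were measured, of the enzyme that usually limits ethylene synthesis, and all passed in the mean, where 41.7% of all probes did. AK071011, described as the rice ACC synthase ACC1, fell by 1.26 ± 0.09 (adjusted p = 2.04e-05), with ratios of -1.29, -1.503, -1.002 and -1.23. AK064250 and AK065212, described by wheat ACC synthases ACS2 and ACS1, rose by 0.62 ± 0.09 and 0.56 ± 0.09 (adjusted p = 0.000795 and 0.00185). AK065212 was no longer called when construct entered the fit as a random block (adjusted p = 0.0667). With median centring none of AK071011, AK064250 and AK065212 was called (adjusted p = 0.116, 0.435 and 0.383). All 3 had 1 sign on all 4 arrays.

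Both SAM synthetase cDNAs and both tested salvage cDNAs passed in the mean, where 41.7% of all probes did, in each case 1 higher and 1 lower. The SAM synthetase pOS-SAMS2 (AK071516) fell by 0.63 ± 0.08 (adjusted p = 0.000658, but 0.614 with median centring), and the other (AK103157) rose by 0.51 ± 0.10 (adjusted p = 0.0042, but 0.206 under the random block and 0.607 with median centring). AK103157 rose with antisense (0.95, adjusted p = 0.00118) and stood at 0.06 with dsRNAi (adjusted p = 0.793), where 37.2% and 25.8% of all probes passed. AK103834, described as submergence-induced protein sip2 of rice, had the lowest mean ratio among the ethylene cDNAs other than AK102472 and AK058296. Proteins of this family are acireductone dioxygenases of methionine salvage. Its ratios were -2.71, -2.92, -3.32 and -2.96, and it fell by 2.98 ± 0.09 (adjusted p = 6.17e-07). AK099497, described as submergence-induced protein 2A, rose by 0.55 ± 0.12 (adjusted p = 0.00774, but 0.141 under the random block and 0.452 with median centring). A methylthioadenosine nucleosidase of the same cycle (AK066172) lacked a value on antisense replicate 1, whose spot was an outlier, and was not tested. Its other arrays gave -0.33, -0.46 and -0.55.

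Neither of 2 tested methionine synthase cDNAs (AK067726 and AK065255) passed in the mean (-0.17 and -0.11, adjusted p = 0.184 and 0.392). With dsRNAi both were lower (-0.54 and -0.45, adjusted p = 0.0203 and 0.0401), where 25.8% of all probes passed. With antisense they stood at 0.20 and 0.24 (adjusted p = 0.276 and 0.205). In the branch that takes SAM to polyamines, 1 of 4 cDNAs passed (25%, against 41.7% of all probes), a SAM decarboxylase 2 (AK070259) that rose by 1.17 ± 0.08 (adjusted p = 2.01e-05, but 0.0571 with median centring). No description matched the cyanoalanine synthases that remove the cyanide released by ACC oxidase.

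Among receptors, 3 of 5 cDNAs were tested, 0 rose and 1 fell (33.3%, against 41.7% of all probes). ETR2 (AK111748) fell by 0.45 ± 0.10 (adjusted p = 0.00918, but 0.115 under the random block, 0.063 with the deposited series table and 0.819 with median centring). ERS2 (AK111696) stood at 0.16 and receptor-like protein 2 (AK111520) at -0.13 (adjusted p = 0.146 and 0.451). AK111520 passed without dsRNAi replicate 1 (-0.31, adjusted p = 0.0419). AK111581 and AK109593 were not well above background on any array.

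Of 9 tested signalling cDNAs, 3 fell, 0 rose and 6 did not pass (33.3% called, against 41.7% of all probes), with a median of -0.08. OsEIL2 (AK060806), an EIN3-like transcription factor, fell by 2.20 ± 0.09 (adjusted p = 2.24e-06), with ratios of -2.83, -2.47, -1.66 and -1.84. Its wild type channels were lower on the dsRNAi arrays (-0.88, adjusted p = 0.00232), while its transgenic channels differed by 0.02 (adjusted p = 0.978). Calls between wild type channels were common, at 32.4% of all probes. Among the ethylene cDNAs they went in both directions, as with AK065473 (-1.04) and AK103157 (1.04). An OsEIL1 cDNA (AK068429) fell by 1.11 ± 0.19 (adjusted p = 0.00272, but 0.0762 under the random block and 0.228 with median centring), and a second one (AK060826) stood at -0.15 (adjusted p = 0.341). An EIN3-like cDNA described from beech (AK065473) fell by 0.74 ± 0.08 (adjusted p = 0.0003, but 0.495 with median centring), while others of that description (AK065979 and AK072462) stood at -0.07 and -0.08 (adjusted p = 0.626 and 0.454). A further OsEIL1 cDNA (AK101076) was too dim to be tested. The 3 EIN2 cDNAs AK111607, AK105770 and AK111802 stood at -0.07, 0.02 and 0.26 (adjusted p = 0.538, 0.892 and 0.214). AK111802 passed with a dye term (adjusted p = 0.0497) and without antisense replicate 1 (0.00391), and AK060826 without dsRNAi replicate 1 (0.0393).

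Of 18 tested ethylene response factor and ethylene-responsive cDNAs, 4 rose and 6 fell (55.6% called, against 41.7% of all probes, 20.5% higher and 21.3% lower), with a median of 0.0033. The list was matched by words, and 4 of its 21 cDNAs are described as other proteins, 1 of which passed. An AP2/ERF-domain cDNA (AK106057) rose by 2.01 ± 0.09 (adjusted p = 2.42e-06), with 3.08 for antisense and 0.93 for dsRNAi. The rice ethylene responsive protein ebp-89 (AK073133) fell by 1.84 ± 0.08 (adjusted p = 2.5e-06, but 0.061 under the random block), and an ERF2-like cDNA (AK111775) fell by 1.53 ± 0.08 (adjusted p = 5.77e-06).

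Taking all ethylene lists but leaving out AK102472 and AK058296, 45 of 55 cDNAs were tested, and 9 rose, 14 fell and 22 did not pass. That is 51.1% called against 41.7% of all probes (20.5% higher and 21.3% lower). Their median log2 ratio was -0.07, against -0.0016 over all tested probes. With construct as a random block 13 passed, with median centring 5, and with each pair of arrays averaged into 1 value 0, an alternative in which limma called 0 probes in all, 3409 having an unadjusted p under 0.05.

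**Figure D4:**
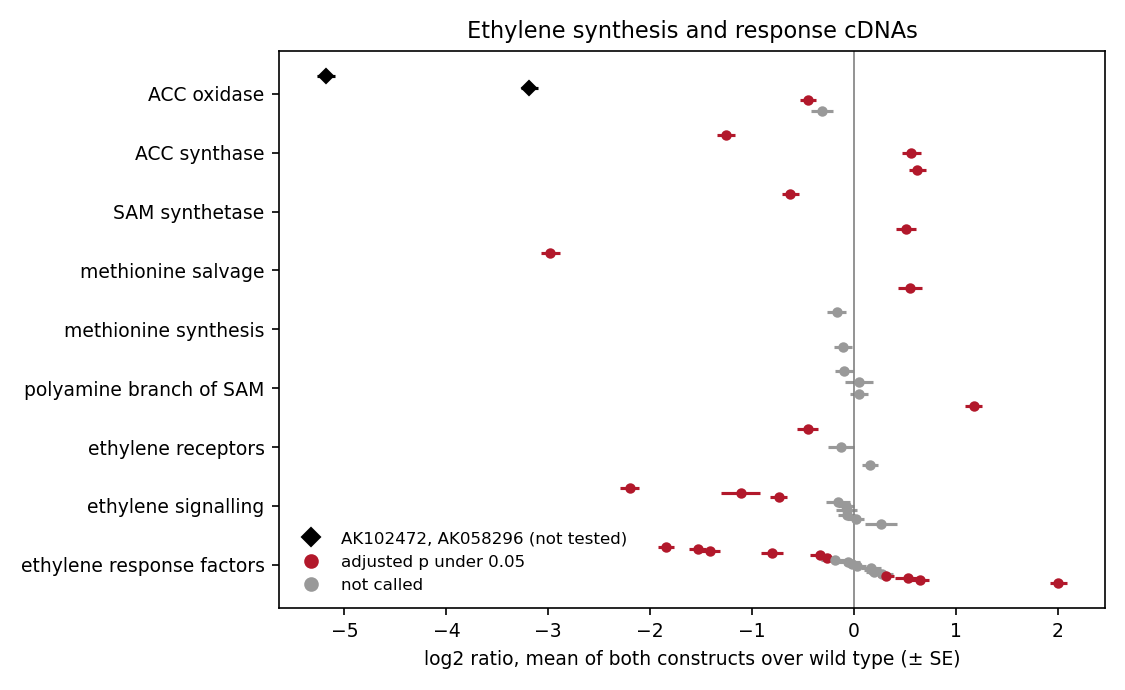
Log2 ratio in the mean of both constructs over wild type (horizontal axis, bars are limma's SE, n = 4 arrays) for the tested cDNAs of each ethylene list (vertical axis). The SE leaves out the gap between constructs. Black diamonds are AK102472 at -5.18 and AK058296 at -3.19, red points have an adjusted p under 0.05 and grey points do not, and the next lowest cDNA is AK103834 at -2.98.

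ACC oxidase belongs to a large family of iron-dependent oxygenases that use 2-oxoglutarate or ascorbate. Of 24 tested cDNAs matched to that family, 12 fell and 2 rose (58.3% called, against 41.7% of all probes, 21.3% lower and 20.5% higher), with a median of -0.22. Of the 28 matched, 8 are described as other proteins (oxoglutarate dehydrogenase subunits or malate translocators), 1 of which passed. A gibberellin 3-beta-hydroxylase (AK072410) fell by 2.30 ± 0.09 and a flavonol synthase (AK072697) by 1.75 ± 0.09 (adjusted p = 1.95e-06 and 5.11e-06). Both falls were larger with the ratios deposited by the authors, where the fall of AK072410 exceeded that of AK058296. A 2-oxoglutarate-dependent dioxygenase (AK068735) rose by 1.42 ± 0.11 (adjusted p = 4.69e-05, or 0.0762 under the random block). By construct it stood at 2.40 with antisense and at 0.44 with dsRNAi, where it was not called (adjusted p = 0.0868).

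The probes whose 4 log2 ratios were nearest to those of AK102472, by root mean square difference over the 4 arrays, were a peptide transporter (AK072119, 0.52), an ABF2-like DNA-binding protein (AK106282, 0.57) and the glutamate decarboxylase OsGAD2 (AK071556, 0.68). An I-box binding factor (AK107134, 0.73) and the early nodulin OsENOD93a (AK105832, 0.84) followed. As with AK102472, the wild type channels of all 5 were lower on the dsRNAi arrays, by 0.75 to 3.11 in log2 level (given with no test, since these probes were chosen by their ratios). Nearest to AK058296 were a stearoyl-ACP desaturase (AK101524, 0.18), an Arabidopsis-like putative DNA-binding protein (AK110619, 0.23), a calcium-transporting ATPase (AK109037, 0.25), an Arabidopsis-like cDNA of no stated product (AK106228, 0.26) and a second ABF2-like protein (AK058773, 0.26). None of the 10 is in an ethylene list, but besides AK102472 and AK058296 those lists hold only 45 of 17997 tested probes. So small a share makes this count uninformative. The wild type spot of AK071556, AK105832 and AK058773 was saturated on 1 array.

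Markers of the panicle and of other tissues and stages were read beside these falls, in a comparison where 41.7% of all probes were called, 20.5% higher and 21.3% lower. Of 25 tested MADS-box cDNAs 12 rose and 3 fell (60% called), with a median log2 ratio of 0.29. The log2 of their summed intensities ran from 15.33 to 15.70 in wild type and from 15.69 to 15.87 in transgenic channels. Such sums, used below too, are weighted towards the brightest probes of a list. Of 33 tested leaf and photosynthesis cDNAs 5 rose and 8 fell (39.4%). The log2 of their summed intensities ran from 14.48 to 15.96 in wild type and from 14.67 to 15.58 in transgenic channels. Of 34 secondary wall cDNAs 8 rose and 12 fell (58.8%), with sums of 14.86 to 15.05 against 14.52 to 14.57, which do not overlap. Of 7 anther and pollen cDNAs 3 rose and 0 fell (42.9%), with sums of 12.74 to 13.46 against 13.45 to 13.86, which just overlap. Of 8 seed storage cDNAs 0 rose and 2 fell (25%), with sums of 10.43 to 10.63 against 10.28 to 10.43, which meet at their ends. The leaf, secondary wall, anther and seed cDNAs not well above background in either channel of any array numbered 4 of 38, 4 of 41, 6 of 13 and 7 of 15, in that order. The part of these tissues and stages in the ACC oxidase falls was not tested.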

How the data were processed

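Spot intensities and log10 ratios of 4 two-colour Agilent arrays were deposited by the authors, extracted per the file headers with Agilent Feature Extraction 8.1.1.1 (antisense) and 9.1.3.1 (dsRNAi). A table of log2 ratios was also deposited by the authors. Set against the scanner ratios (r from 0.839 to 0.975) it is Cy5 over Cy3, with turned medians of -0.0046, -0.0366, 0.0842 and 0.0521 and unknown centring.

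Mean spot intensities were background corrected (normexp, offset 50) and loess normalized with limma 3.58.1 in R 4.3.3. Control and outlier spots were left out. The direction of each ratio, transgenic over wild type, follows the label fields, although the labelling text of the exchanged arrays names the other dye. Turned this way, the arrays of a construct correlated at 0.933 and 0.832. Probes well above background on at least 2 arrays passed (18096), and 17997 with a value on all 4 arrays were fitted with 1 coefficient per construct, with Benjamini-Hochberg adjustment and a threshold of 0.05. Single channels were fitted after Aquantile normalization (spot correlation 0.237). The fit was tested on simulated data.

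AK102472, AK058296 and all lists were chosen with earlier results of these data known. Lists are word patterns on the descriptions. Some ACC oxidase cDNAs entered the fit but are not reported here. All others of the ACC oxidase, ACC synthase, SAM synthetase, salvage, receptor and signalling lists are named, the 3 largest called changes of 1 sign on all arrays in the others, and the 5 probes nearest to each of AK102472 and AK058296. AK111690, AK069833, AK067726 and AK065255 are named besides, for their difference between the constructs. Alternatives covered background, normalization, filter, dye, trend, blocks, deposited ratios and left-out arrays. None of the 6 reported ACC oxidase accessions was found in the RefSeq gene table, and no sequence is shown.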

Additional observations from a re-analysis of the deposited data

Results flagged for a closer look

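The listed cDNAs below differed between the constructs by limma's test of dsRNAi minus antisense (log2 ratio, 2 arrays each, adjusted p over all probes, 16.4% of which passed). Of the 45 tested ethylene cDNAs other than AK102472 and AK058296, 10 differed (5 with a positive and 5 with a negative difference). AK102472 differed by 1.14 (adjusted p = 0.00488), with its ratio falling less under dsRNAi. It was chosen with its ratios known, so this p-value may carry that selection. The SAM synthetase AK103157 differed by -0.893 (adjusted p = 0.0192). In signalling, OsEIL2 (AK060806) differed by 0.895 (adjusted p = 0.0159), the EIN3-like AK065473 by 0.661 (adjusted p = 0.0357) and the EIN2 cDNA AK105770 by 0.703 (adjusted p = 0.0265). The AP2/ERF cDNA AK106057 differed by -2.15 (adjusted p = 0.000349), ebp-89 (AK073133) by 2.52 (adjusted p = 0.000156) and the dioxygenase AK068735 by -1.95 (adjusted p = 0.00138). All of the cDNAs named so far were also called between the wild type channels, as were 32.4% of all probes. Only ebp-89 was called between the transgenic channels (1.59, limma separate channel adjusted p = 0.00092), as were 2.52% of all probes. A difference in ratio here is not by itself a difference between the transgenic RNAs.

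With the deposited log ratio the calls of a difference in ratio were lost for AK103157, AK065473, AK105770 and AK060806 (adjusted p = 0.0839, 0.0906, 0.0709 and 0.075). The deposited series table lost them too (0.0658, 0.0719, 0.0581 and 0.0802). Without antisense replicate 1, those of AK065473, AK105770 and AK060806 were lost (0.205, 0.138 and 0.0648). Without dsRNAi replicate 1, those of AK103157, AK065473 and AK105770 were lost (0.0639, 0.094 and 0.082), and without dsRNAi replicate 2 that of AK065473 (0.0639). The call of AK065473 was also lost with normexp offset 10 and with plain background subtraction (adjusted p = 0.0648 and 0.0732). Median centring ended all 8 calls of AK102472 and the cDNAs named directly after it (adjusted p between 0.237 and 1).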

How the results depend on the processing

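AK102472 and AK058296 stayed below wild type under every alternative run. The mean of AK102472 was -5.57 with the deposited log ratio, -5.50 with the series table, -5.39 with normexp offset 10 and -5.38 with plain subtraction. In that order its antisense ratio was -6.22, -6.13, -6.01 and -5.98. Its dsRNAi ratio was -4.92, -4.88 and -4.79 with the deposited ratio, the series table and plain subtraction, and -4.31 with median centring, which put AK058296 at -2.83. Its construct difference became 1.43 with median centring (adjusted p = 1). Median centring left 1096 probes called in the mean (7508 otherwise), 837 for antisense, 191 for dsRNAi, 32 for the difference and 5 calls among ethylene cDNAs. Construct as a random block left 2594 and 13, and averaging each pair left 0 and 0 in limma (3409 at an unadjusted p under 0.05). Offset 10 left 279 calls between transgenic channels (453 otherwise). The mean changes of AK072410, AK072697, AK111775, AK106057, AK073133 and AK068735 were larger with offset 10 and plain subtraction. They were larger still with the deposited log ratio and the series table, which put AK072410 below AK058296. The mean of AK060806 changed little in these settings. The order of sizes among cDNAs thus depends on the processing.

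Leaving out 1 array at a time moved AK102472 from -5.27 to -5.10 in the mean, AK058296 from -3.24 to -3.13, the AK102472 difference from 0.964 to 1.32 (adjusted p 0.00221 to 0.0123) and its wild type difference from -1.08 to -0.909. Calls ranged from 6251 to 7136 in the mean, 4611 to 7326 for antisense, 3132 to 5033 for dsRNAi, 3622 to 4597 between wild type channels, 78 to 285 between transgenic channels, and 22 to 26 among ethylene cDNAs. The left-out fits of single channels used the spot correlation of all 4 arrays, and a lone array was assumed to vary like the others. The labels number no replicates, and the numbers used here follow dye orientation, so the fit with a dye term is also the fit with a replicate block. It left the means at -5.18 and -3.19 and the AK102472 difference at 1.14 (adjusted p = 0.0104), with 8136 calls in the mean, 3300 in the difference and 25 among ethylene cDNAs. The number of arrays limits all of these values, and construct, wild type pool and software version cannot be told apart.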
